A study of Mus musculus with 22 samples.

Results

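The genes of the 4 mouse Hox clusters were followed across 22 microarrays of primordial germ cells (PGCs), their cultures, the pluripotent cells derived from them and embryonic stem cells (ESCs). The members were all non-control probes whose gene name on the array was Hoxa, Hoxb, Hoxc or Hoxd followed by a number. This gave 59 spots of 43379, 50 probes of 41174 and 38 genes of 28104. On the mouse mm9 coordinates of the array's annotation, the Hoxa probes (14 probes, 11 genes) lay on chromosome 6 between 52105768 and 52209074, and the Hoxb probes (15 probes, 10 genes) on chromosome 11 between 96057368 and 96228510. The Hoxc probes (9 probes, 8 genes) lay on chromosome 15 between 102758794 and 102866583, and the Hoxd probes (12 probes, 9 genes) on chromosome 2 between 74508005 and 74603059.

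Each array measured one RNA sample in 1 colour on an Agilent array, and no group had more than 1 array. PGCs are the embryonic precursors of sperm and eggs; under bFGF they can convert in culture to embryonic germ cells (EGCs), a pluripotent line that resembles ESCs. The time course held uncultured SSEA-1-positive E11.5 PGCs, PGCs after 1 day with bFGF, after 2, 3 and 6 days with bFGF, 2i and A83-01, a day 10 culture whose label names no additions, and an EGC line made from E11.5 PGCs. The term 2i stands for PD325901 (a MEK inhibitor, 1 µM) with CHIR99021 (a GSK3 inhibitor, 3 µM); A83-01 (250 nM) inhibits TGF-beta type I receptors. At day 2, PGCs had bFGF alone, bFGF with the MEK inhibitor, the GSK inhibitor, A83-01 or 4-hydroxytamoxifen (4OHT, 100 nM, given to activate AKT), or bFGF with 2i, A83-01 and 4OHT together; the labels do not name the transgene on which 4OHT acts. The ESC side held an SSEA-1-positive ESC line and EBRTcH3 ESCs, either parental or GFP-positive after forced expression of Dnd, Vasa, Blimp1, Prdm14, Nanos3, Nanos2 or GFP. For GFP and Blimp1 the labels give an EF1a promoter with IRES-GFP and day 2. All media were based on knockout DMEM with serum replacement and LIF. The sex, strain and number of pooled embryos of the PGCs are not given in the sources used here.

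Hox genes encode homeodomain transcription factors. In the embryo the genes of a cluster are switched on in order along the chromosome, with low paralogue numbers active earlier and nearer the head and high numbers later and nearer the tail. Retinoic acid, Wnt and FGF signals and the Cdx factors start them, Polycomb complexes hold them silent, Trithorax complexes keep them active, and Pbx and Meis proteins of the TALE class bind DNA together with the Hox proteins. In pluripotent cells the clusters are repressed and carry Polycomb marks, and mouse PGCs are known for turning down a somatic programme that includes Hox genes.

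Promoters are shown for 4 genes whose course differed: Hoxa7 and Hoxb8, which were higher up to day 3 than later, Hoxd4, which was highest in uncultured PGCs, and Hoxb1, which in the course was well above background only from day 6. They are RefSeq sequences of the 250 bases before the gene's start on GRCm38.p6, which is another build than that of the probes. Capitals mark matches on either strand to TTTATG (a Cdx-type motif), TGATNNAT (a Hox-Pbx-type motif) and AGGTCA (a nuclear receptor element).
Hoxa7, chr6:52218574-52218823 (- strand): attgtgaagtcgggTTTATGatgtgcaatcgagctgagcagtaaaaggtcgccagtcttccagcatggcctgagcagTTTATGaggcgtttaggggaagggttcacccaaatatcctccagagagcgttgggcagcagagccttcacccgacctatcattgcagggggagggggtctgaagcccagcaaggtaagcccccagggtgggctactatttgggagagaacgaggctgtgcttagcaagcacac
Hoxb8, chr11:96281655-96281904 (+ strand): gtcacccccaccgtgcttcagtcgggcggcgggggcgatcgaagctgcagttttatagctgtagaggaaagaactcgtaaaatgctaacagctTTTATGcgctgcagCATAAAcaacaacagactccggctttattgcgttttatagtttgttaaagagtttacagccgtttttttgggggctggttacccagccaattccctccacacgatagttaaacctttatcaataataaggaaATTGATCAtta
Hoxd4, chr2:74721728-74721977 (+ strand): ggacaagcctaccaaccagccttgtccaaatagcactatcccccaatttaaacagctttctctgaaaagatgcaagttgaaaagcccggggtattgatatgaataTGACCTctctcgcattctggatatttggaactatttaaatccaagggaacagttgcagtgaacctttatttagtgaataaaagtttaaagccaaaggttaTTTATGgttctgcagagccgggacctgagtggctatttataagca
Hoxb1, chr11:96365508-96365757 (+ strand): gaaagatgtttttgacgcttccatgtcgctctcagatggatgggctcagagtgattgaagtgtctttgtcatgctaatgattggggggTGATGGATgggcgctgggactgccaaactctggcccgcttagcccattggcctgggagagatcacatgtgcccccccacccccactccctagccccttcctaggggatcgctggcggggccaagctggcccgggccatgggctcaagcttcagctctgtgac

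RefSeq held 24 promoters of 22 of the 38 Hox genes. TTTATG was in 5 of the 24 and in 10.8% of 32851 promoters of the same length. TGATNNAT was in 4 of the 24 and in 7.68% of all, and AGGTCA in 6 of the 24 and in 14% of all. The 24 promoters held a median of 12.5 CpG (2 to 35) against 6 in all promoters, and Hoxa7, Hoxb8, Hoxd4 and Hoxb1 held 7, 12, 3 and 7. These matches describe the letters of the window and no binding was measured.

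A level below is log2 of the background-subtracted signal minus log2 of the 75th percentile of the same array, so 0 is that percentile itself. The scanner's mark "well above background" told which levels were measured. It was given to 44.3% of probes on the array of 2i, A83-01 and 4OHT and to 64.7% on the EGC array, with the others between. The 75th percentile ran from 124 to 782 intensity units, the array with the fewest marked probes was also the dimmest, and the 22 arrays lay on 10 slides. The levels are those of bulk RNA, in which fewer cells of a type and less RNA per cell cannot be told apart. Of the 5 germ cell genes forced in EBRTcH3 cells that could be checked here, 1 was highest on its own array: Nanos3 was at 2.66 there and at most at -0.33 on the other 7. Ddx4 (Vasa), Dnd1 and Prdm1 (Blimp1) were higher on another array, and Nanos2 was not well above background on any. Whether these probes lie within the introduced sequence is not given, so the constructs are called by their labels.

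Hox transcripts were detected far more widely on the PGC arrays than on those of EBRTcH3 cells. Between 24 and 32 of the 38 genes had a probe well above background on the uncultured PGC array and the course cultures (24, 27, 26, 26, 30 and 32 in order of time). At day 2, 27 were so with bFGF alone, 27 with the MEK inhibitor, 29 with the GSK inhibitor, 31 with A83-01 and 27 with 4OHT, but 16 on the dim array of 2i, A83-01 and 4OHT. The EGC line had 28 and the ESC line 22. The 8 EBRTcH3 arrays had 9 (parental) to 17 (labelled Blimp1), and 9 and 16 on those labelled Nanos2 and Nanos3. Of all probes, 51.2% to 60.9% were well above background on the course arrays and 48.8% to 61.6% on the EBRTcH3 arrays. The 75th percentile ran from 206 to 782 units on the course arrays and from 195 to 465 on the EBRTcH3 arrays. The part of brightness in these counts was not tested. By the probe that stands for each gene, 30 genes were well above background on 6 arrays or more and 7 on all 22, among them Hoxa3, Hoxa7, Hoxb6, Hoxc4, Hoxc5 and Hoxd9.

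**Figure D1:**
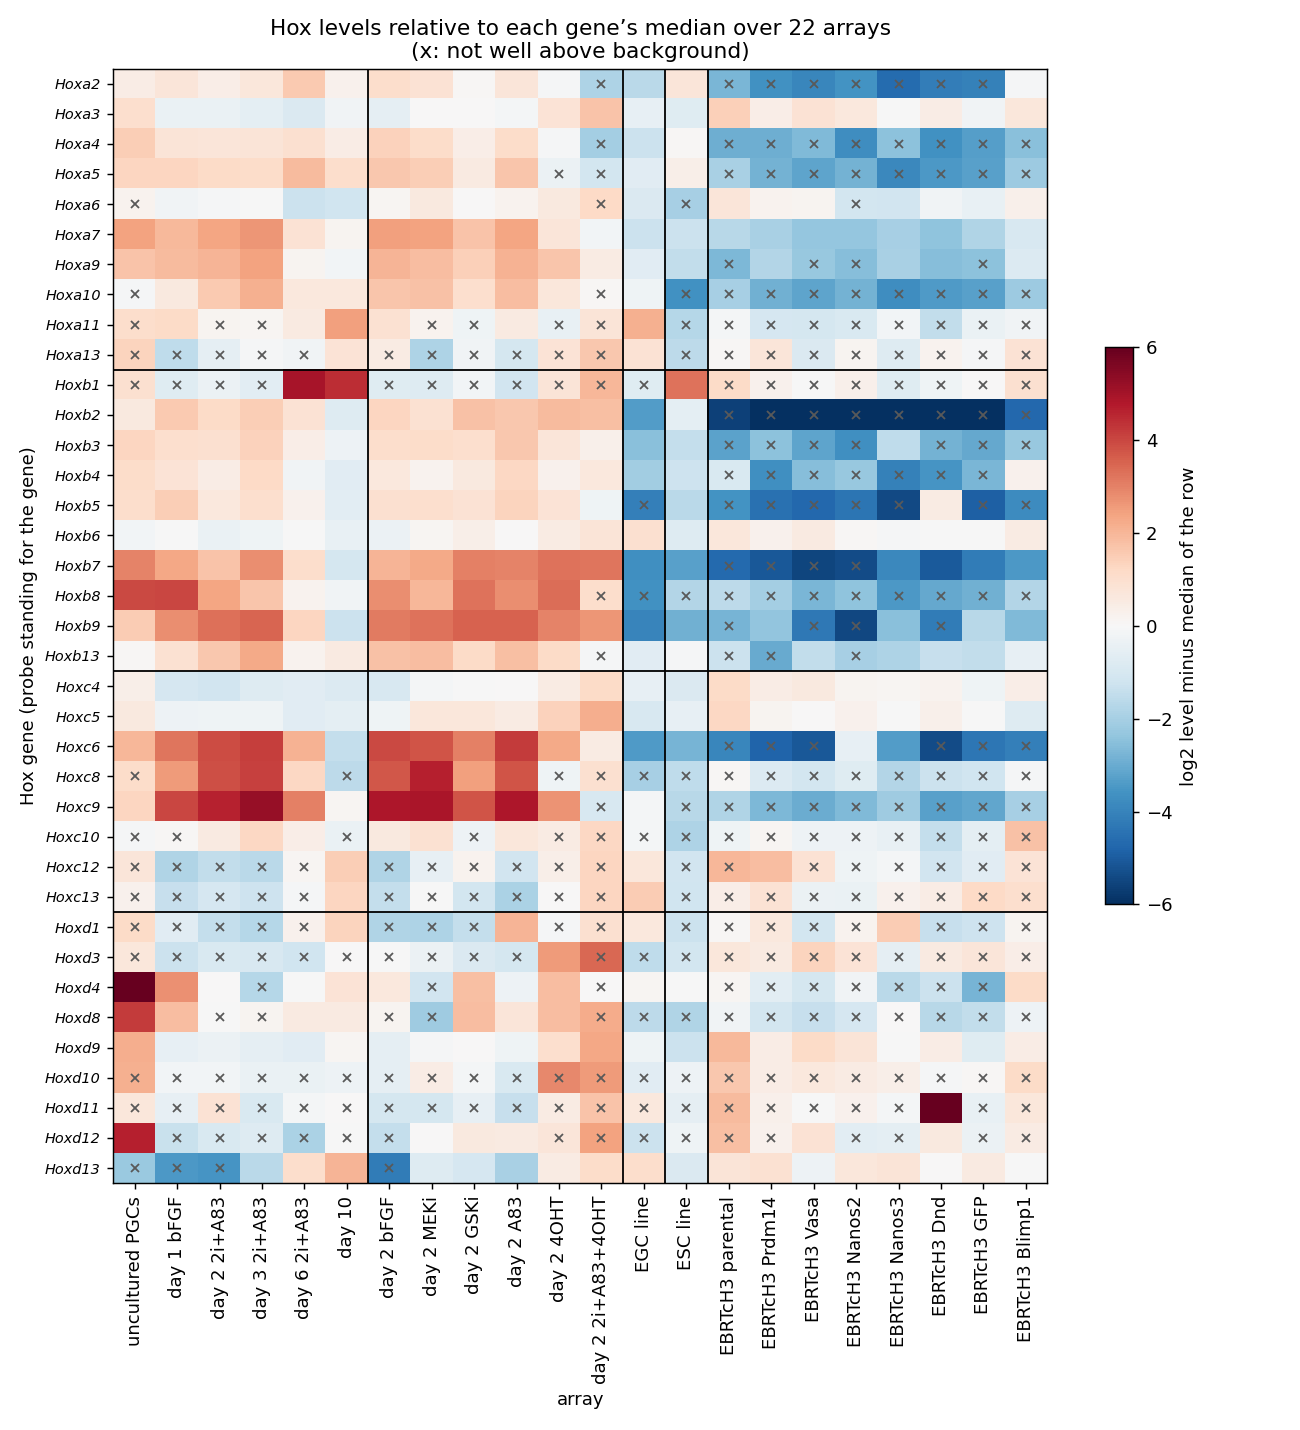
Level of 37 Hox genes (rows, by cluster and paralogue number) on each of the 22 arrays (columns), as the log2 difference from that gene's median over the arrays, with x where the probe was not well above background. Hoxb2 to Hoxb9 other than Hoxb6 are above their medians on most PGC arrays, and 9 to 17 Hox genes are well above background on an EBRTcH3 array against 24 to 32 on the course arrays.

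The 12 PGC arrays (uncultured, and cultures to day 10) were then set against the 9 ESC arrays to ask which Hox genes separate the germ cell cultures from ESCs. Higher on the PGC arrays were Hoxa2, Hoxa4, Hoxa5, Hoxa7, Hoxa9, Hoxa10, Hoxa11, Hoxb2, Hoxb3, Hoxb4, Hoxb5, Hoxb7, Hoxb8, Hoxb9 and Hoxb13, with Hoxc6, Hoxc8, Hoxc9 and Hoxd8. Between them on the chromosome, Hoxa3, Hoxa6 (0.41, limma adjusted p = 0.3488) and the probe standing for Hoxb6 were not called. The largest differences of group means were 117-fold for Hoxb2 and 105-fold for Hoxb7, and the other Hoxd genes were not called. Hoxb2 was well above background on 1 of the 9 ESC arrays and Hoxb7 on 5, so these folds rest partly on unmeasured ESC levels. Hoxa2, Hoxa4, Hoxa5, Hoxb3, Hoxb4, Hoxb5 and Hoxc6 were so on 1 to 3 ESC arrays. Hoxa10, Hoxa11, Hoxb8, Hoxc8, Hoxc9 and Hoxd8 were so on none and passed the filter through the PGC arrays alone. Of the 37 Hox genes tested, 19 were called higher and 0 lower (limma, adjusted p under 0.05 over 22031 genes, with 1 lower at an unadjusted p under 0.05, Hoxd13), where 15.4% of all genes were called higher and 24.1% lower. The remaining gene, Hoxd10, was well above background on no array. Without the filter on dim probes all 38 were tested and 19 were called higher, beside 11.4% of all genes higher and 17.4% lower. Over the tested Hox genes 26 of 37 had a positive log2 difference and the median was 1.64, while over all genes 35.9% were positive and the median was -0.30. That shift of all genes depends on the scaling: it was -0.12 with quantile normalization and -0.01 with the percentile taken over detected probes. Each group pools different treatments with no repeated culture, so these p-values measure the spread between conditions. With only the ESC line and parental EBRTcH3 on the ESC side, 10 Hox genes were called and 700 genes in all.

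The clusters differed in how many members were called. Without the filter, 7 of 11 Hoxa genes were called, with a median log2 difference of 3.27 over the cluster, and 8 of 10 Hoxb genes, with a median of 3.91. Hoxc had 3 of 8 (median 0.53) and Hoxd 1 of 9 (median -0.08). By paralogue number, 3 of 8 genes numbered 1 to 3 were called (median 0.62), 10 of 15 numbered 4 to 8 (median 3.15) and 6 of 15 numbered 9 to 13 (median 0.11). These counts describe the arrays, and differences between the clusters were not tested.

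In the Hoxb cluster, Hoxb7 had levels of -0.83, 2.77 and 3.47 on the PGC arrays (lowest, median and highest) and -5.31, -4.45 and -3.03 on the ESC arrays. The groups did not overlap, and the difference was 6.71 (SE 0.45, limma adjusted p = 1.03e-09), from 2.43 ± 1.22 (SD, n = 12) to -4.29 ± 0.84 (SD, n = 9). Hoxb9, which patterns the trunk, had -1.93, 2.43 and 2.92 on the PGC arrays and -6.07, -3.40 and -2.31 on the ESC arrays. Its groups did not overlap either and differed by 5.72 (SE 0.55, limma adjusted p = 1.39e-07). Hoxb2, a hindbrain gene, lay at -0.76, 1.40 and 1.89 on the PGC arrays and at -7.40, -6.40 and -0.59 on the ESC arrays. There the highest ESC array was the ESC line, which lay above the lowest PGC array and was the only ESC array on which Hoxb2 was well above background. The difference was 6.87 (SE 0.60, limma adjusted p = 3.87e-08). Hoxb8, a trunk gene, was at -4.35, -1.56 and -0.13 on the PGC arrays. It was not well above background on any ESC array, where its lowest, median and highest were -7.58, -6.56 and -5.70. That makes it at least 6.36-fold higher on the PGC arrays (limma adjusted p = 2.56e-07), taking as the ESC value the lowest signal marked well above background on each array. Bounds below, written as at least a fold, take the unmeasured side in the same way. In the bounds of PGC against ESC arrays, the PGC side is the mean of all 12 arrays, with levels below the mark taken as they stand. Hoxc8 was well above background on 8 of the 12 PGC arrays and Hoxd8 on 7. For genes well above background on no ESC array, the p-values rest on unmeasured ESC levels and are given as a description.

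The other called Hoxb genes were Hoxb3, Hoxb4, Hoxb5 and Hoxb13. Hoxb3 had -2.54, -1.23 and -0.59 on the PGC arrays and -5.88, -5.08 and -3.65 on the ESC arrays (3.51, SE 0.28, limma adjusted p = 1.13e-08). Hoxb5 had -2.73, -1.19 and -0.61 against -7.49, -6.48 and -1.62, and the array labelled Dnd was the highest ESC array (4.30, SE 0.54, limma adjusted p = 2.97e-06). Hoxb4, known from blood stem cells, had -3.62, -2.35 and -1.71 against -7.00, -5.49 and -2.69 (2.83, SE 0.43, limma adjusted p = 2.46e-05), with the array labelled Blimp1 highest on the ESC side. Hoxb13, the most posterior gene of the cluster, lay at -3.19, -1.97 and -0.86 on the PGC arrays and did not overlap with the ESC arrays at -6.17, -4.60 and -3.21 (2.56, SE 0.35, limma adjusted p = 6.51e-06). Its lowest PGC array was that of 2i, A83-01 and 4OHT, where it was not well above background. Hoxb1 was well above background on 3 arrays only and was not called.

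In the Hoxa cluster, Hoxa7 was detected on all 22 arrays. It lay at -0.07, 2.25 and 2.72 on the PGC arrays and at -2.33, -1.84 and -0.86 on the ESC arrays. The groups did not overlap and differed by 3.50 (SE 0.35, limma adjusted p = 2.27e-07). Hoxa9, a gene of the thoracic and lumbar region that also acts in blood progenitors, had -2.53, -0.55 and 0.05 against -5.03, -4.64 and -3.18, again without overlap (3.53, SE 0.32, limma adjusted p = 7.15e-08). Hoxa10, a gene of the genital tract, had -3.58, -2.65 and -1.36 on the PGC arrays. It was well above background on no ESC array (-7.24, -6.64 and -5.48) and was at least 4.23-fold higher on the PGC arrays (limma adjusted p = 3.84e-09).

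Hoxa2, Hoxa4 and Hoxa5 were called with groups that overlapped through the ESC line, and for Hoxa2 also through the array labelled Blimp1. Hoxa2 lay at -4.84, -2.46 and -1.45 on the PGC arrays and at -7.63, -6.65 and -2.28 on the ESC arrays (3.30, SE 0.58, limma adjusted p = 1.08e-04). Hoxa4 lay at -4.74, -1.92 and -1.19 against -6.41, -5.61 and -2.60 (3.27, SE 0.43, limma adjusted p = 4.91e-06), and Hoxa5 at -4.77, -2.43 and -1.75 against -7.51, -6.50 and -3.32 (3.55, SE 0.44, limma adjusted p = 2.48e-06). On the PGC side the lowest array of each was that of 2i, A83-01 and 4OHT, where none of them was well above background. Hoxa11 was dim in both groups (-5.90, -4.87 and -2.98 against -7.14, -6.36 and -5.56). It was well above background on no ESC array, so no size is given for its difference (limma adjusted p = 9.12e-04), and it was not called with the normexp background correction.

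Of the Hoxc genes, Hoxc6 had the levels -3.22, 1.34 and 2.40 on the PGC arrays and -7.16, -5.89 and -2.27 on the ESC arrays (6.44, SE 0.67, limma adjusted p = 3.36e-07). The lowest PGC array was day 10 and the highest ESC array was that labelled Nanos2. Hoxc9 had -4.82, 0.03 and 1.38 on the PGC arrays, was well above background on no ESC array (-7.14, -6.53 and -5.51), and was at least 14.5-fold higher on the PGC arrays (limma adjusted p = 1.31e-06). Hoxc8 had -7.11, -3.06 and -0.87 against -7.30, -6.67 and -5.47, which overlap, and was at least 2.28-fold higher (limma adjusted p = 4.29e-04).

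In the Hoxd cluster Hoxd8 was the gene called. It had -7.23, -4.47 and -0.91 on the PGC arrays and -6.92, -6.19 and -5.09 on the ESC arrays, and was at least 1.32-fold higher (limma adjusted p = 0.0043), a call that normexp did not keep. Hoxd4, an upper trunk and hindbrain gene, reached 2.40 on 1 PGC array but had a median of -4.0 there against -4.95 on the ESC arrays (1.64, SE 0.76, limma adjusted p = 0.0908). Hoxd13, the last gene of the cluster and a digit and genital tubercle gene, was the one with the lower PGC levels that came nearest to a call. It lay at -7.69, -4.81 and -1.44 on the PGC arrays and at -4.37, -2.95 and -2.60 on the ESC arrays (-1.45, SE 0.66, limma adjusted p = 0.0841). Its highest PGC arrays were day 6 and day 10. Without them the difference was -2.0 (limma adjusted p = 0.0078), and it was also called lower without day 6 alone (-1.66, adjusted p = 0.0484), without day 10 alone (-1.75, adjusted p = 0.0241) and without the array of 2i, A83-01 and 4OHT (-1.66, adjusted p = 0.0412).

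In 9 of the 38 genes every PGC array lay above every ESC array: Hoxa7, Hoxa9, Hoxa10, Hoxb3, Hoxb7, Hoxb8, Hoxb9, Hoxb13 and Hoxc9. This order includes unmeasured levels, and only Hoxa7 was well above background on every PGC and ESC array. Hoxa10 was below the mark on the uncultured PGC array, and Hoxa10, Hoxb8, Hoxb13 and Hoxc9 on the dim array of 2i, A83-01 and 4OHT. On that dim array Hoxb13 was at -3.19, next to a highest ESC level of -3.21. Of all genes, 1.35% were so. The reverse occurred in 1.29% of all genes and in 0 Hox genes.

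**Figure D2:**
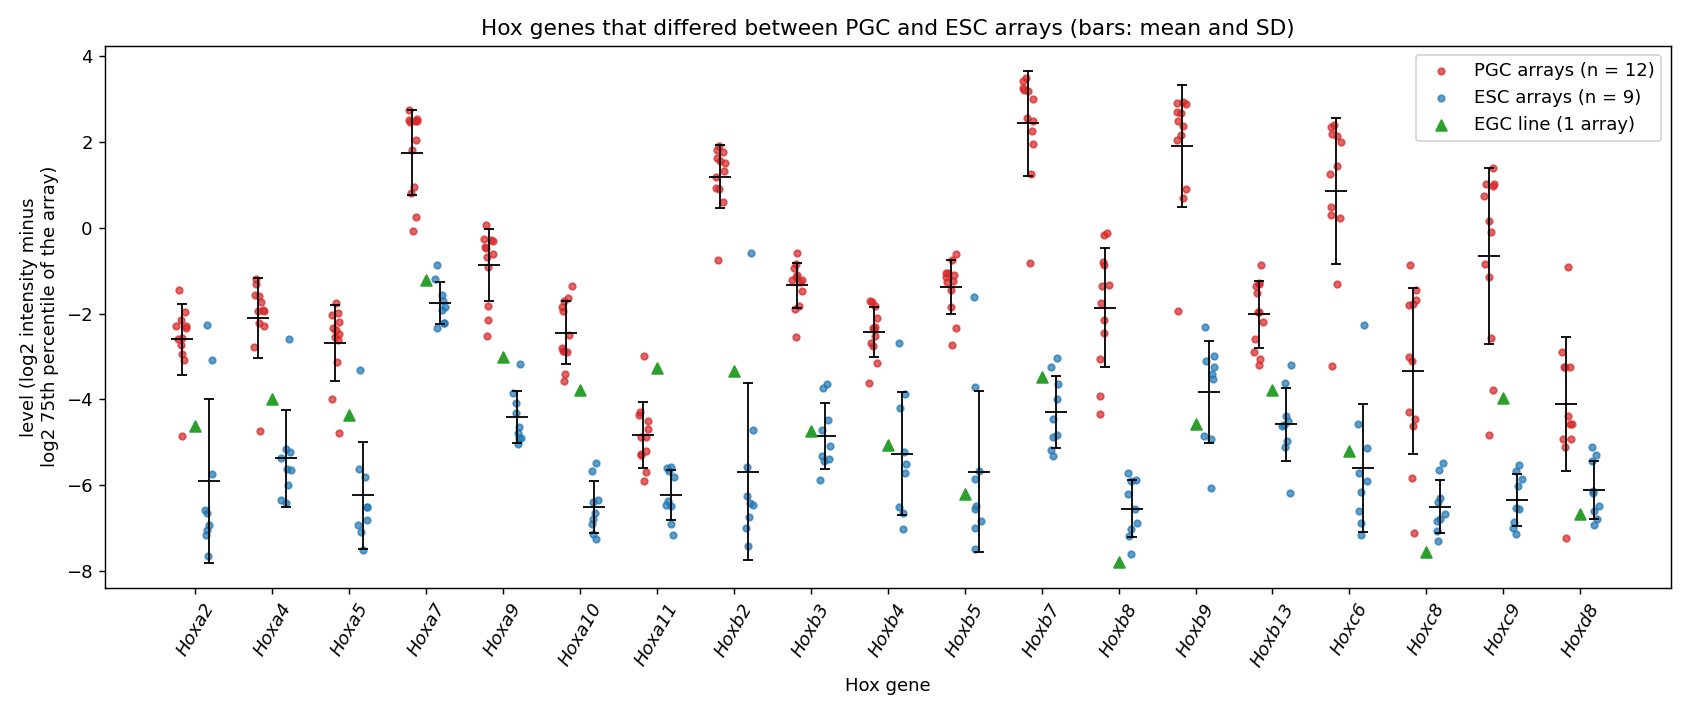
Levels (log2 relative to the array's 75th percentile) of the 19 called Hox genes on the 12 PGC arrays and the 9 ESC arrays, 1 point per array, with the group mean and SD and the EGC line as a triangle. The PGC points of Hoxb7 lie between -0.83 and 3.47 and the ESC points between -5.31 and -3.03, while those of Hoxc8 overlap.

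The genes detected on every array did not all follow this split. Hoxa3, Hoxc4, Hoxc5, Hoxd9 and the probe standing for Hoxb6 had log2 differences of -0.35, -0.51, 0.23, -0.12 and -0.12, with limma adjusted p = 0.3739 for Hoxa3, 0.161 for Hoxc4 and 0.6436 for Hoxb6. Over the 22 arrays, which share their scaling, the levels of Hoxa3 had a Pearson correlation of -0.918 with log2 of the array's 75th percentile, and those of Hoxd9 -0.881, Hoxc4 -0.814, Hoxc5 -0.571 and Hoxb6 -0.550. Hoxa3, Hoxc4, Hoxc5 and Hoxd9 were highest on the dimmest array. The correlation was 0.433 for Hoxa7. The part of array brightness in these levels was not tested further.

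Probes of the same gene agreed for some members and not for others. Hoxb9 differed by 5.72 and 5.39 by its pair of probes, and Hoxb3 by 3.51 and 4.10. For Hoxb6 the probe standing for the gene, whose accession had no RefSeq match here, ranged over only 1.73 across the arrays and differed by -0.12. The other Hoxb6 probe, which matches RefSeq, lay at -2.74, 1.65 and 2.94 on the PGC arrays and at -5.47, -4.97 and -3.80 on the ESC arrays. It differed by 5.93 (SE 0.49, limma adjusted p = 1.97e-08 with every probe fitted), so Hoxb6 counts as not called above although 1 of its probes separates the groups. Hoxa4 differed by 3.27 and by 0.69 (adjusted p = 0.1470), and second probes of Hoxb2 and Hoxb8 were well above background on 0 arrays.

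**Figure D3:**
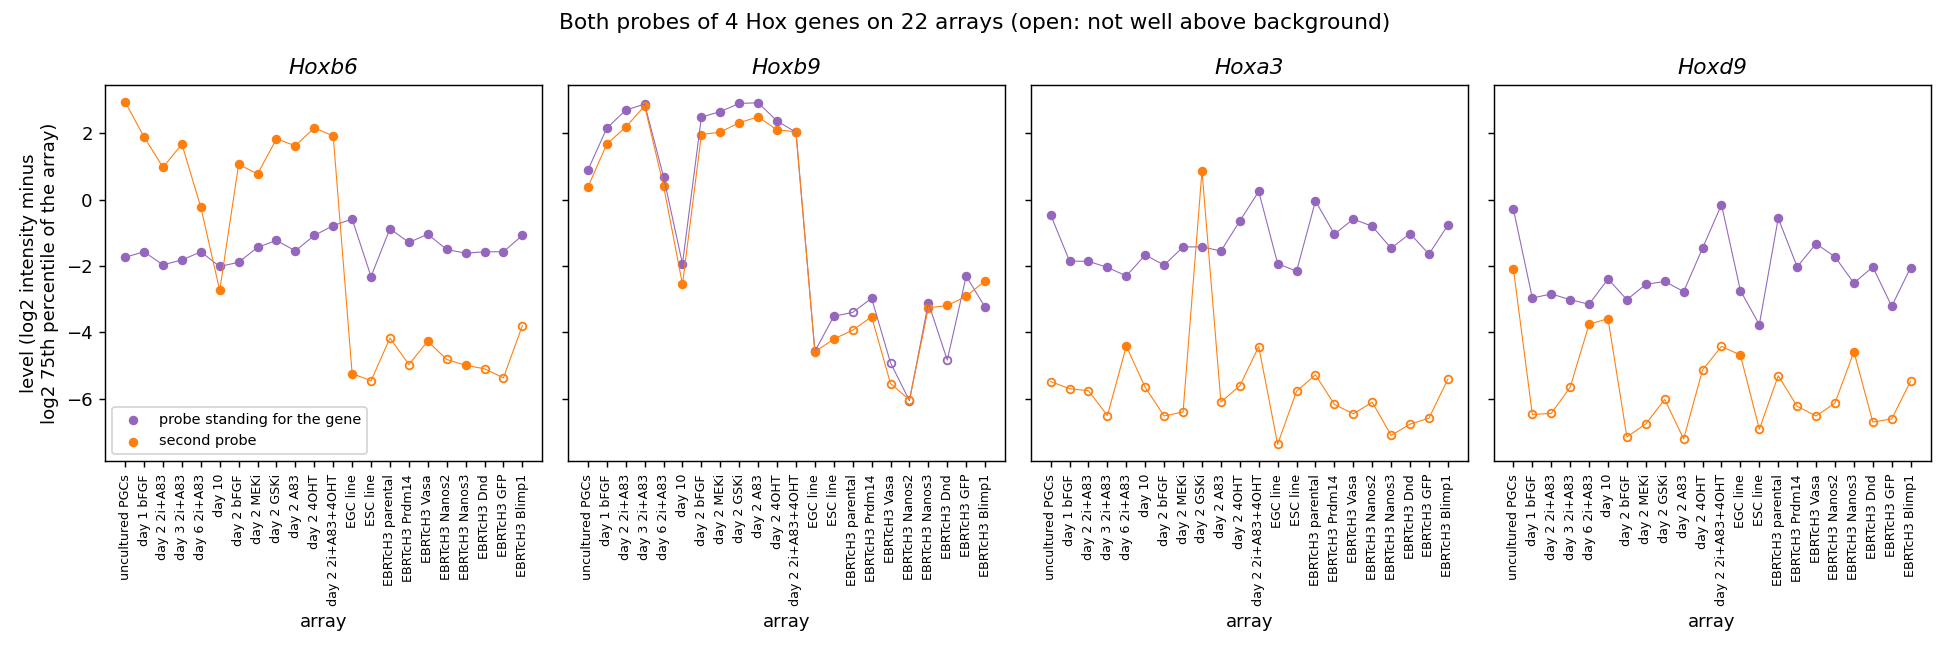
Levels (log2 relative to the array's 75th percentile) of the 2 probes of Hoxb6, Hoxb9, Hoxa3 and Hoxd9 across the 22 arrays. The Hoxb9 probes run together, while the Hoxb6 probes differ by -0.12 and 5.93 between PGC and ESC arrays.

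Some lists of markers of other cell types moved with the same split. Of 12 fibroblast and mesenchyme markers, 8 were called higher on the PGC arrays and 1 (Thy1) lower, with a median of 3.24, and Col3a1 and Dcn had levels of 2.15 ± 2.51 and 4.21 ± 2.42 (SD, n = 12) there against -5.31 ± 1.31 and -4.46 ± 2.18 (SD, n = 9). The summed linear level of the list, on the log2 scale, ran from 4.88 to 8.42 on the PGC arrays and from 4.49 to 5.87 on the ESC arrays, with 7 to 12 of the 12 detected on the PGC arrays and 6 to 11 on the ESC arrays. Of 15 gonadal somatic markers 6 were higher and 1 lower (summed levels 1.81 to 3.14 against 0.68 to 1.92). Of 8 mesonephric and kidney markers 5 were higher and 0 lower (1.70 to 3.65 against -0.34 to 2.78). Of 6 endothelial markers 0 were higher and 1 lower (median -0.44), and of 9 blood markers 0 were higher and 3 lower, though the embryonic globin Hbb-y was at 4.77 on the uncultured PGC array. The 9 germ cell markers analysed were detected on every PGC array but that of 2i, A83-01 and 4OHT (8), and also on every ESC array. Of these 2 were higher and 1 lower on the PGC arrays (median 0.17), and Dazl was at 2.51 ± 0.65 (SD, n = 12) against -2.18 ± 0.75 (SD, n = 9). The part of the other cell types in the Hox differences was not tested.

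Cofactors of Hox proteins were mostly on the same side. All 9 TALE genes were tested, 5 were called higher on the PGC arrays and 0 lower, with a median of 1.08. Among the higher were Meis2 (2.79, limma adjusted p = 4.51e-05), Meis1 (1.94, 8.23e-05), Pbx3 (1.20, 0.0018) and Meis3 (1.08, 0.011). Genes upstream of the clusters were mixed, with 5 of 15 called higher, 2 lower and a median of -0.40. The retinoic acid receptor gene Rarb (4.23, limma adjusted p = 5.24e-07), the retinoic acid synthesis gene Aldh1a2 (3.37, 9.38e-06), the hindbrain regulator Egr2 (2.97, 5.71e-04), Gdf11 (1.97, 3.06e-05) and the retinoic acid degrading Cyp26b1 (1.13, 0.0287) were higher. The receptor genes Rxrg (-2.91, 0.0035) and Rarg (-1.46, 0.0027) were lower.

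Chromatin regulators of the clusters went both ways. Of 18 Polycomb genes 5 were called higher and 9 lower (median -0.51). Among the higher were Cbx8 (2.30), Bmi1 (2.20, limma adjusted p = 6.75e-09), Phc2 (1.16) and Scmh1 (0.70), and among the lower ones were Cbx7 (-2.78), Phc1 (-2.0), Jarid2 (-1.80), Eed (-1.79) and Mtf2 (-1.66). Of 10 Trithorax genes 0 were higher and 6 lower (median -0.78), among them Ash2l (-1.21), Kmt2b (-1.14), Kdm6a (-0.82) and Kmt2a (-0.75). Gmnn, which encodes the Hox-binding inhibitor geminin, was lower (-0.79, limma adjusted p = 0.0175). Of 19 genes that flank the clusters 2 were higher, Skap1 (2.05) beside Hoxb and Lnpk (0.51) beside Hoxd, and 3 lower, Atf2 (-0.91), Cbx1 (-0.88) and Cbx5 (-0.62), with a median of -0.21. Of 5 ParaHox genes tested, relatives of the Hox clusters, 0 were higher and 1 lower, Gsx1 (-1.02, limma adjusted p = 0.0479). Of 4 limb and axial genes tested, Gdf11 was higher and T (-1.48) and Tbx6 (-1.02) were lower. Next to these lists stand the median of -0.30 over all genes and the 15.4% called higher and 24.1% called lower.

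The time course asked how Hox transcripts changed as PGCs turned into EGCs. No gene's slope on log2(day + 1) was called over the 6 arrays (limma, 0 of 19081 genes, 2351 at an unadjusted p under 0.05, 12.3%). Of 35 Hox genes tested 0 were called, 2 had an unadjusted p under 0.05 upward (among them Hoxd13, slope 1.52) and 8 downward. The smallest p was that of Hoxb8 (-1.39 per doubling of day + 1, SE 0.20, limma adjusted p = 0.0936). The levels below are therefore a description of single arrays, in which 35 genes were detected at least once. Days 3 and 6 lay on 1 slide, days 1, 2 and 10 on another and the uncultured PGCs on their own. The highest of the 6 arrays was uncultured PGCs for 9 of them, day 1 for 4, day 2 for 0, day 3 for 12, day 6 for 4 and day 10 for 6.

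The 12 genes highest at day 3 were Hoxa6, Hoxa7, Hoxa9, Hoxa10, Hoxb3, Hoxb4, Hoxb9, Hoxb13, Hoxc6, Hoxc8, Hoxc9 and Hoxc10, and none was a Hoxd gene. Hoxc9 was at -2.56 in uncultured PGCs, then at 0.16, 0.73, 1.38, -0.84 and -3.77 on days 1, 2, 3, 6 and 10, and at -3.96 in EGCs. Hoxc6 was at 0.22, 1.43, 2.12, 2.34, 0.29 and -3.22 in the same order and at -5.21 in EGCs. Hoxc8 was not well above background in uncultured PGCs, lay at -3.01, -1.70, -1.46 and -4.30 on days 1, 2, 3 and 6, and again was not well above background at day 10 or in EGCs. These 3 Hoxc genes were thus highest at day 3 and lower from day 6. Hoxb9 was at 0.89, 2.15, 2.70, 2.88, 0.69 and -1.93 and at -4.58 in EGCs, and Hoxa9 at -0.62, -0.44, -0.31, 0.05, -2.16 and -2.53 and at -3.02 in EGCs. Hoxa10 was below the mark in uncultured PGCs, reached -1.36 at day 3 and was at -3.77 in EGCs, and Hoxb13 went from -3.06 to -0.86 at day 3 and to -3.79 in EGCs. Beside these, the summed fibroblast and mesenchyme markers were at 4.88, 7.04, 8.42, 7.47, 6.66 and 6.26 along the course and at 4.83 in EGCs, and their part in the Hox levels was not tested.

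Hoxa7, Hoxb7 and Hoxb8 were high from the start. Hoxa7 was at 2.47, 2.04, 2.46, 2.72, 0.94 and 0.24 and at -1.22 in EGCs, close to -1.20 in the ESC line. Hoxb7 was at 3.18, 2.54, 1.94, 3.00, 1.25 and -0.83, and at -3.48 in EGCs and -3.03 in the ESC line. Hoxb8 was at -0.18, -0.13, -1.75, -2.44, -3.91 and -4.35 and was well above background in neither line. The RefSeq-matched probe of Hoxb6 was at 2.94, 1.89, 0.97, 1.67, -0.23, -2.74 and, in EGCs, -5.25. All 4 genes were lower at day 10 than on any earlier array of the course.

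Hoxb2, Hoxa2, Hoxa5 and Hoxa4 kept nearer to their starting level up to day 10 than Hoxa7, Hoxb7 and Hoxb8. Not all anterior genes did so, as Hoxd4 went from 2.40 in uncultured PGCs to -3.49 at day 10. Hoxb2 was at 0.60, 1.56, 1.17, 1.49, 0.89 and -0.76 and at -3.34 in EGCs. Hoxa2 stayed between -2.73 and -1.45 along the course, with its highest level at day 6, and was at -4.61 in EGCs. Hoxa5 lay between -2.62 and -1.75 and then at -4.35. Hoxa4 was at -1.19, -1.94, -1.94, -1.91, -1.73 and -2.23 and at -3.99 in EGCs. Hoxb3, Hoxb4 and Hoxb5 were lowest at day 10 among the course arrays (-2.54, -3.62 and -2.73), and in EGCs Hoxb3 was at -4.73, Hoxb4 at -5.05 and Hoxb5 not well above background.

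**Figure D4:**
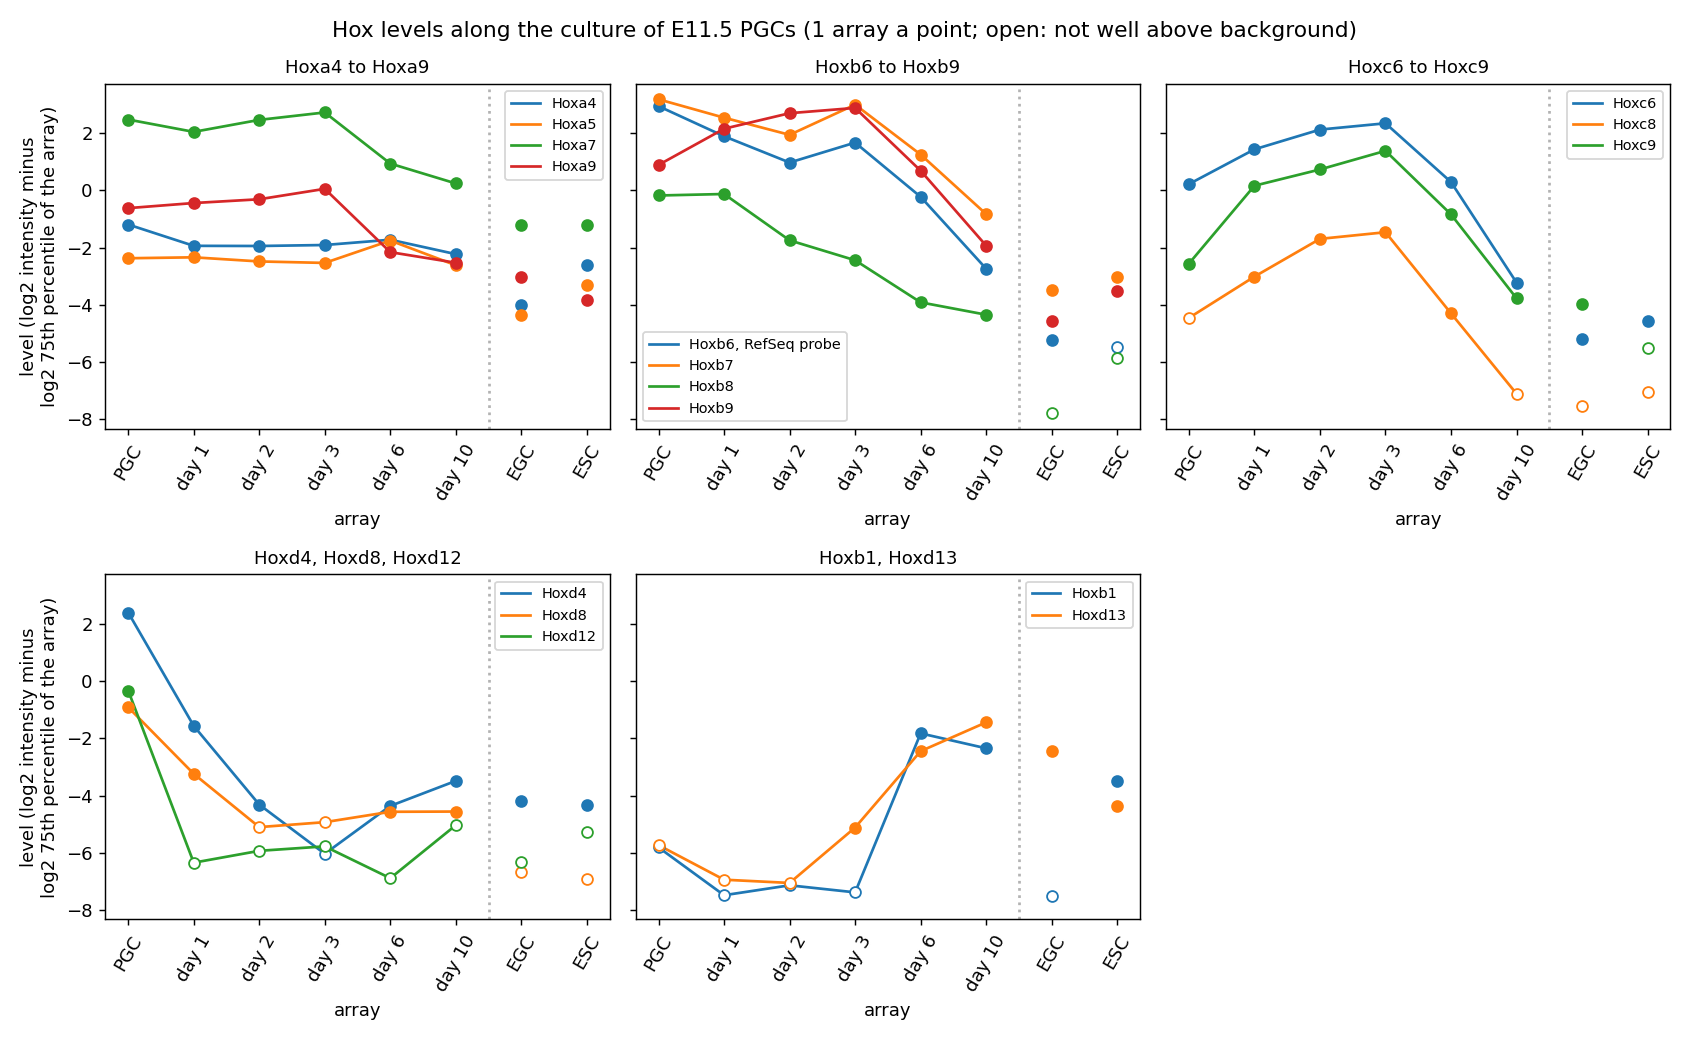
Levels (log2 relative to the array's 75th percentile) of Hox genes by role in the course on uncultured PGCs, days 1, 2, 3, 6 and 10, EGCs and the ESC line, 1 array each. Hoxc9 goes from -2.56 to 1.38 at day 3 and -3.96 in EGCs, and Hoxd4 from 2.40 in uncultured PGCs to -1.57 at day 1.

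Several genes of the Hoxd cluster were highest in uncultured PGCs. Hoxd4 was at 2.40 there, then at -1.57 and -4.32 on days 1 and 2, not well above background at day 3, and at -4.36 and -3.49 on days 6 and 10. Hoxd8 was at -0.91 and then -3.24 at day 1, and Hoxd12 was at -0.33 in uncultured PGCs and not well above background on the later course arrays. Between uncultured PGCs and day 1, 26 Hox genes were measured on at least 1 side and 9 differed by 2-fold or more, 3 higher and 6 lower at day 1, where 16.9% of all genes were higher and 36% lower. All 4 measured Hoxd genes were among the lower: Hoxd4 by 15.6-fold, Hoxd12 by at least 33.9-fold, Hoxd8 with a log2 difference of -2.33 and Hoxd9 with -2.68. Hoxd12 was not well above background at day 1 and could count only as lower. The higher ones were Hoxb9 (1.26 on the log2 scale), Hoxc6 (1.21) and Hoxc9 (2.72). The uncultured PGC array lay on another slide than day 1 and had a summed level of blood markers of 5.60 against -2.41 to 1.67 on the other 11 PGC arrays, whose part was not tested. The 75th percentile was 206 units on the uncultured PGC array and 668 at day 1. Over the 22 arrays Hoxd9 had a Pearson correlation of -0.881 with log2 of that percentile. The part of brightness in this pair was not tested.

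After 2 days with bFGF alone, 6 of 26 measured were 2-fold or more higher than in uncultured PGCs and 7 lower (all genes 18.1% and 36.3%), and 2 of 28 were higher and 3 lower than at day 1 (3.95% and 5.14%).

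From day 1 to day 3 few Hox genes differed by 2-fold: 1 was 2-fold higher and 3 lower from day 1 to day 2 (28 measured, all genes 3.88% and 5.04%), and 1 was higher and 1 lower from day 2 to day 3 (26 measured, all genes 3.43% and 6.12%). Between days 3 and 6, 30 were measured, 3 were higher and 12 lower, beside 12.3% and 7.3% of all genes. The 12 lower genes were Hoxa6, Hoxa7, Hoxa9, Hoxa10, Hoxb4, Hoxb7, Hoxb8, Hoxb9, Hoxb13, Hoxc6, Hoxc8 and Hoxc9. Among the 3 higher genes were Hoxb1, by at least 11.4-fold, and Hoxd13, by 6.36-fold.

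Hoxb1, an early hindbrain gene, was not well above background until it was at -1.83 and -2.35 on days 6 and 10. It was again not well above background in EGCs and was at -3.50 in the ESC line. Hoxd13 was first above the mark at day 3 (-5.12), then lay at -2.45 and -1.44, and was at -2.45 in EGCs and -4.37 in the ESC line. Hoxa13, Hoxc12, Hoxc13 and Hoxd1 were detected in the course at day 10 only. From day 6 to day 10, 34 were measured, 4 were higher (Hoxa11, Hoxc12, Hoxd1 and Hoxd13) and 6 lower (all genes 8.35% and 8.99%). The lower ones were Hoxc6 by 11.4-fold, Hoxc9 by 7.63-fold, Hoxb9 by 6.15-fold, Hoxb7 by 4.23-fold, Hoxb2 by 3.15-fold and Hoxa2 by 2.43-fold.

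The EGC line was below day 10 in many Hox genes. Of 32 measured, 17 were 2-fold or more lower and 1 higher, beside 6.47% and 5.73% of all genes. In the Hoxb cluster 9 of 10 genes were lower, and the 1 higher gene was Hoxb6 by the probe without a RefSeq match. Hoxb1, Hoxb5, Hoxb8 and Hoxd8 were not well above background in EGCs and could count only as lower. With normexp 7 in place of 18 were 2-fold apart. Against the ESC line, 30 were measured, 6 were higher in EGCs and 9 lower (all genes 12.3% and 7.19%). Of the higher, Hoxa10, Hoxa11 and Hoxc9 were not well above background in the ESC line and could count only as higher. Hoxb6 was among the higher by the probe without a RefSeq match. Of the lower, Hoxb1 and Hoxb5 could count only as lower. The ESC line itself stood well above the EBRTcH3 arrays in 4 genes, named after their values were seen: Hoxb2 was at -0.59 and at most at -4.71 on the 8 EBRTcH3 arrays, Hoxa4 at -2.60 and at most -5.16, Hoxa5 at -3.32 and at most -5.62, and Hoxb1 at -3.50 and at most -5.61. The ESC line was not the highest in every anterior gene: Hoxa3 was lower in the ESC line (-2.16) than on any EBRTcH3 array (-1.65 to -0.04), and Hoxb4, Hoxb5 and Hoxd4 were each higher on 1 EBRTcH3 array or more. Hoxa3 levels had a Pearson correlation of -0.918 with array brightness. The 75th percentile was 764 units on the ESC line array and at most 465 on the EBRTcH3 arrays, and its part was not tested. The EGC line, the ESC line and the day 10 culture lay on 3 different slides.

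At day 2 the additions were compared to ask what each inhibitor does to the cultures. In the additive model over 7 arrays no gene was called for any term (limma, 0 of 19116 genes), while 618 genes for the MEK inhibitor, 896 for the GSK inhibitor, 710 for A83-01 and 8924 for 4OHT (46.7%) had an unadjusted p under 0.05. The smallest adjusted p of the 32 Hox genes tested was 0.9687, 0.9049, 0.9998 and 0.0527 in that order. The model leaves 2 residual degrees of freedom. The arrays with 4OHT were the only ones on their slide, so 4OHT and slide cannot be told apart, and the median over all genes for the 4OHT term was 0.58, or 0.06 with quantile normalization and 0.23 with the percentile over detected probes.

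The MEK inhibitor, the GSK inhibitor and A83-01 arrays lay together on 1 slide and bFGF alone on another, with that of 2i and A83-01. On the arrays with the MEK inhibitor, with A83-01 and with 2i and A83-01, most Hox levels were within 2-fold of bFGF alone. With the MEK inhibitor 1 of 29 measured was higher and 1 lower (all genes 6.28% and 3.54%), with A83-01 1 of 31 was higher and 0 lower (7.02% and 6.07%), and with 2i and A83-01 0 of 27 were higher and 0 lower (2.04% and 1.96%). With the GSK inhibitor 4 of 30 were higher and 3 lower (11.6% and 7.04%). Hoxb7 was at 2.24 with bFGF alone and at 3.24 with the GSK inhibitor, Hoxd4 at -3.69 and -2.52, Hoxc8 at -1.81 and -3.11 and Hoxc9 at 0.97 and -0.11. Hoxa5 was 2.15-fold lower.

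With 4OHT, 9 of 28 Hox genes were 2-fold or more higher than with bFGF alone and 7 lower, beside 27.9% and 12% of all genes. By cluster, 4 of 9 measured Hoxa genes and 3 of 5 Hoxc genes were lower, 0 of 9 Hoxb genes were lower, and 5 of 5 Hoxd genes were higher. Hoxd3, Hoxd8 and Hoxd13 were not well above background with bFGF alone, so they could count only as higher. Hoxd4 and Hoxd9 were measured on both arrays. Hoxa5 and Hoxc8 were not well above background with 4OHT, so they could count only as lower. Hoxa7 was at 2.54 with bFGF, at 2.49, 1.80 and 2.47 with the MEK inhibitor, the GSK inhibitor and A83-01, at 2.46 with 2i and A83-01, and at 0.81 and -0.07 on the 4OHT arrays without and with 2i and A83-01. Its 4OHT term was -1.94 (SE 0.33, limma adjusted p = 0.0527). Hoxc6 was at 2.17, 1.99, 1.25, 2.40 and 2.12 without 4OHT and at 0.49 and -1.31 with it (term -2.32, SE 0.46). Hoxc9 was at 0.97, 1.01, -0.11, 1.01 and 0.73 without 4OHT, at -1.15 with it, and not well above background with 4OHT, 2i and A83-01 (term -3.52, SE 0.76, limma adjusted p = 0.0538). Hoxc8 was between -3.11 and -0.87 without 4OHT and well above background on neither 4OHT array.

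Hoxb7 and Hoxb9 did not follow. Hoxb7 was at 2.24, 2.47, 3.24, 3.20 and 1.94 without 4OHT and at 3.47 and 3.41 with it, and Hoxb9 at 2.49, 2.65, 2.90, 2.92 and 2.70 without and at 2.37 and 2.03 with it. Hoxb8 was at -1.36, -2.15, -0.86, -1.33 and -1.75 without 4OHT and at -0.80 with it, and was not well above background on the dim array of all additions. Of all genes, 46.7% had an unadjusted p under 0.05 for the 4OHT term, in either direction. Of the 32 tested, 5 Hox genes had an unadjusted p under 0.05 upward for 4OHT and 9 downward: Hoxa2 (-1.46), Hoxa4 (-1.90), Hoxa5, Hoxa7, Hoxa10 (-1.15), Hoxb13 (-1.03), Hoxc6, Hoxc8 and Hoxc9. The 5 upward were Hoxa3 (1.41), Hoxc5 (1.5), Hoxd3, Hoxd8 (1.90) and Hoxd9 (1.86). No size is given for Hoxa5 and Hoxc8, which were well above background on neither 4OHT array. None is given for Hoxd3 either, which was so on the array of 4OHT alone and no other at day 2, through which it passed the filter. Some printed sizes rest partly on unmeasured levels. Hoxa2, Hoxa4, Hoxa10, Hoxb13 and Hoxd8 were below the mark on the array of 2i, A83-01 and 4OHT. Hoxd8 was also below it with bFGF alone, with the MEK inhibitor and with 2i and A83-01. Of the upward genes Hoxa3, Hoxc5 and Hoxd9 are among the genes highest on the dimmest array. The summed fibroblast and mesenchyme level was 8.36 with bFGF, 7.36, 6.30 and 7.05 with the MEK inhibitor, the GSK inhibitor and A83-01, and 5.46 and 5.35 on the 4OHT arrays, and the median 4OHT term of that list was -2.49. Its part in the lower Hoxa and Hoxc levels was not tested. Calls for 4OHT depend on the filter: without it 11 Hox genes were called higher and 9 lower (all genes 48.9% and 7.34%).

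**Figure D5:**
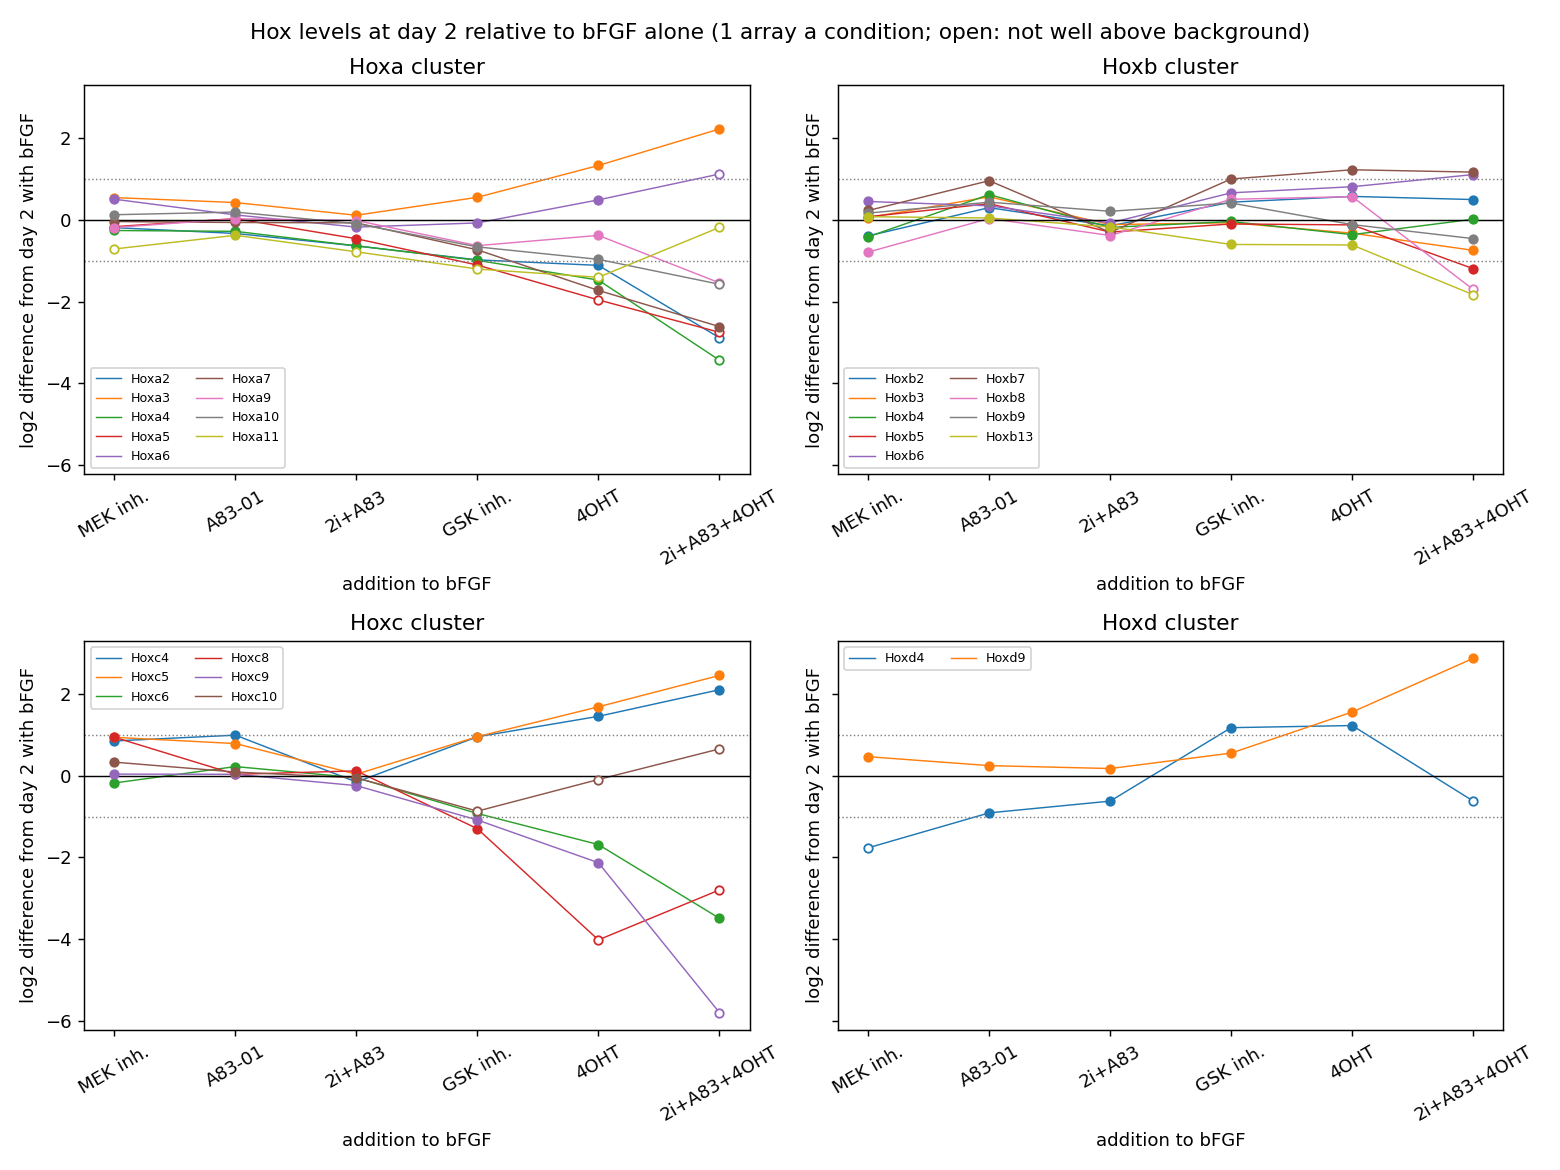
Log2 difference from bFGF alone at day 2, by cluster and addition, of Hox genes well above background with bFGF alone, 1 array per condition, with dotted lines at 2-fold and open points not well above background. With 4OHT Hoxa7, Hoxc6, Hoxc8 and Hoxc9 lie below the lower line, and Hoxb7 and Hoxb9 at differences above it.

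With 2i, A83-01 and 4OHT together, 20 Hox genes were measured on at least 1 side against 4OHT alone, and 1 was higher and 5 lower (all genes 9.79% and 5.13%): Hoxd9 was 2.48-fold higher, and Hoxa9, Hoxb5, Hoxc6, Hoxb8 and Hoxc9 were 2.23-fold, 2.10-fold, 3.49-fold, at least 3.60-fold and at least 2.81-fold lower. Against 2i and A83-01, which lay on another slide, 7 of 24 were higher and 5 lower (all genes 40.7% and 17.4%). Bright and dim arrays meet in both pairs.

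Forced expression of germ cell genes in EBRTcH3 ESCs asked whether they alter the ESC state. The arrays labelled Prdm14 and Vasa shared a slide with the parental cells, and that labelled Blimp1 with GFP. Those labelled Nanos2, Nanos3 and Dnd shared a slide with no parental or GFP array, so each was set against other constructs only. Each construct was compared with the other arrays of its slide, and none of the 23 Hox genes tested was called for any of the 6 constructs (limma, 0 Hox genes). Of 19274 to 19280 genes, 0 were called for 5 constructs and 2 (0.0104% higher) on the array labelled Dnd, both outside the clusters. Unadjusted p was under 0.05 for 1198 genes with the array labelled Prdm14, 532 with Vasa, 560 with Nanos2, 1759 with Nanos3, 429 with Dnd and 929 with Blimp1. Among the Hox genes these were 1 lower with Prdm14, 0 with Vasa, 1 higher with Nanos2, 4 higher with Nanos3, 2 higher and 2 lower with Dnd, and 3 higher with Blimp1.

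Single arrays held single high Hox genes. On the array labelled Dnd, Hoxd11 was at -0.12, where it was well above background on no other of the 22 arrays and at most at -4.78 on the other ESC arrays (limma adjusted p = 0.0941 against the other arrays of its slide). Hoxb5 was at -1.62 there (limma adjusted p = 0.0958), and with quantile normalization both were called. On the array labelled Blimp1, Hoxa2 was at -3.09 (limma adjusted p = 0.2063) and Hoxd4 at -3.16 (limma adjusted p = 0.2611). Of the EBRTcH3 arrays, each of these 4 genes was well above background on the named one alone and passed the filter through it, so no size is given for these differences. Against the GFP array of the same slide, 6 of 16 measured were 2-fold higher and 0 lower, beside 12.4% and 4.56% of all genes, among them Hoxb4 (at least 4.35-fold), Hoxa2 (at least 3.29-fold), Hoxd4 (at least 3.13-fold), Hoxa9 (at least 3.03-fold) and Hoxd9 (2.25-fold). Those given as at least a fold were not well above background on the GFP array and could count only as higher. Hoxc6 was at -2.27 on the array labelled Nanos2 (limma adjusted p = 0.5774), and of the other EBRTcH3 arrays it was well above background on that labelled Nanos3. With 1 array per construct these levels have no replicate check.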

How the data were processed

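RNA of 22 samples was hybridised to 1-colour Agilent mouse arrays, 1 array per group, on 10 slides. The deposited scanner tables hold intensity values that the authors obtained with Agilent Feature Extraction 10.7.3.1, per the file headers and the submitters' processing notes, with the background already subtracted in the processed signal. Feature positions follow mm9, per the file headers. The authors' deposited value table holds the same intensity values and served as an alternative.

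From the processed signal, control and outlier spots were left out, log2 values were reduced by the log2 75th percentile of each array, and repeat spots were averaged. Hox probes were taken by the array's own gene names; other probes were named through RefSeq accession, symbol or synonym, or kept the file's name. For each gene the probe with the highest mean level stood, and genes that passed the well above background mark on 1 array or more of the fit were tested with limma 3.58.1 (R 4.3.3, lmFit and eBayes, two-sided, Benjamini-Hochberg over all genes, threshold 0.05). Pairs of arrays have no test. A gene counts at 2-fold, and a side below background was set to the lowest signal well above background on its array. A gene measured on 1 array of a pair could therefore count as higher on that array only. It was left out where the levels went the other way. Figures and tables were made with Python 3.11.15, pandas 2.3.3 and matplotlib 3.10.9. The scripts were tested on simulated data.

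Groups come from the sample titles. The Hox genes, the other gene lists and the comparisons were chosen with earlier results of these data known. All Hox genes are accounted for; levels are given for those well above background on at least 6 arrays or past a threshold, and of the other lists the genes past the threshold, up to those with the largest differences. Promoters are RefSeq's, on GRCm38.p6, and were read by gene symbol. The alternatives were normexp (offset 50), quantile normalization, the percentile over detected probes, the authors' value table, no filter or one at 50% of the arrays, every probe, slide as a random block, other time scales and leaving arrays out; setting the EBRTcH3 arrays alone on the ESC side was added after seeing the data. The small number of arrays limits the precision. Some genes and probe sequences are not reported here.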

Additional observations from a re-analysis of the deposited data

Results flagged for a closer look

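In the groups of 4 to 10 arrays, 11 of 59 sets of Hox levels held an array whose gap to its nearest neighbour exceeded Dixon's 95% critical value, which chance alone gives in about 1 of 20 sets. Many of these share an array.

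Among the 9 ESC arrays the ESC line was far above the others in 4 genes. Hoxb2 was at -0.59 there, with the next array at -4.71. Hoxa4 was at -2.60 against -5.16, Hoxa5 at -3.32 against -5.62 and Hoxb1 at -3.50 against -5.61. In the same group Hoxd11 stood apart on the array labelled Dnd, at -0.12 against -4.78.

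Among the 7 day 2 arrays, the array with 2i, A83-01 and 4OHT was far below the others in 5 genes. Hoxa2 was at -4.84 with the next array at -3.07, Hoxa4 at -4.74 against -2.78, Hoxa9 at -1.83 against -0.93, Hoxb13 at -3.19 against -1.97 and Hoxc9 at -4.82 against -1.15. Of these Hoxa9 was well above background on that array, which was the dimmest of the 22, and the other 4 were not. Hoxb4 was highest with A83-01, at -1.71 against -2.32.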

How the results depend on the processing

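Of the 19 Hox genes called higher on the PGC arrays, 10 were called under every alternative in which they were tested (Hoxa10 was not tested with the filter at 50% of the arrays), and no difference of a called gene changed sign. The count was 19 or 20 with quantile normalization, the authors' value table, no filter, every probe, slide as a random block, the EGC array beside the ESC arrays, without uncultured PGCs and day 1, or with the EBRTcH3 arrays alone (chosen after seeing the data), 17 with normexp, 22 with the percentile over detected probes, 15 of 24 tested with the filter at 50% of the arrays, and 19 to 21 leaving out each array. It was 10 with only the ESC line and parental EBRTcH3 on the ESC side, where 2 arrays stand against 12. These counts take calls in both directions, so those from leaving out an array are not all of genes higher on the PGC arrays. Hoxd13 was called lower without day 6, without day 10 and without the array of 2i, A83-01 and 4OHT. Without the array of 2i, A83-01 and 4OHT, Hoxc4 was also called lower (-0.64, adjusted p = 0.0454), and without day 10 Hoxc10 higher (adjusted p = 0.0364).

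The day 2 4OHT term had 0 Hox calls and 16 with normexp, 20 without the filter, 10 with the filter at 50% of the arrays and 9 with every probe. Leaving out 1 array gave 0 to 20 calls: 10 without bFGF alone, 19 without the MEK inhibitor, 20 without the GSK inhibitor and 19 without A83-01. The MEK inhibitor, GSK inhibitor and A83-01 terms gave 0 to 3 calls each in the same way, and the time trend and the 6 constructs 0. With quantile normalization 2 Hox genes were called for Dnd (Hoxd11 and Hoxb5) and 1 for Blimp1 (Hoxa2). The cause of these changes was not tested. Slide as a random block could not be fitted at day 2, and neither could a construct without its own array, or Blimp1 without GFP.

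Counts of Hox genes 2-fold apart between single arrays moved as follows. Without the filter on dim probes they went from 9 to 19 for day 1 against uncultured PGCs, from 2 to 4 for day 3 against day 2, from 15 to 24 for EGCs against ESCs, from 13 to 20 and from 5 to 8 for day 2 with bFGF against uncultured PGCs and against day 1, from 2 to 7 for the MEK inhibitor, from 1 to 5 for A83-01, from 0 to 2 for 2i and A83-01, from 6 to 17 and from 12 to 28 for all additions against 4OHT and against 2i and A83-01, and from 6 to 19 for Blimp1 against GFP. With normexp they were 2 for day 2 against day 1 (4 before), 1 for day 3 against day 2, 6 for day 10 against day 6 (10 before), 7 for EGCs against day 10 (18 before), 5 for EGCs against ESCs, 2 for day 2 with bFGF against day 1, 0 for the MEK inhibitor, 1 for the GSK inhibitor (7 before), 0 for A83-01 and 3 for Blimp1. With the authors' value table A83-01 had 2. No paired analysis was possible because each group has 1 array. Levels of dim genes are limited by the signal over background, which was lowest on the array of all additions.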

Other observations

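Second probes of a pair of anterior genes stood out on 1 array, that of day 2 with the GSK inhibitor. The second probe of Hoxa3 was at 0.87 there and between -7.38 and -4.42 on the other 21, and the second probe of Hoxd3 was at -0.50 there and well above background on no other array. The probes standing for the same genes did not follow: that of Hoxa3 was at -1.42 on this array, within its range over the others, and that of Hoxd3 was not well above background.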
